A study of Mus musculus with 4 samples.

Results

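Of the 35976 gene symbols counted in DP thymocytes, 10 were examined here, the BCL2 family genes Bcl2, Bcl2l1, Mcl1, Bax, Bak1, Bcl2l11, Bbc3, Pmaip1, Bid and Bmf. They were taken by symbol, and all 10 passed the filter on low counts that left 20389 tested genes. DP thymocytes are immature T cells with both CD4 and CD8 on their surface, and here they were sorted from mouse thymus as CD24 positive and TCRb negative. RNA-seq libraries came from 2 Cxxc1 KO samples (Cxxc1 F/F :Lck-cre) and 2 control samples (Cxxc1 +/+ :Lck-cre), so both genotypes carried the Lck-cre transgene, which expresses Cre recombinase in T-lineage cells. Cxxc1 encodes a protein that binds unmethylated CpG dinucleotides and recruits histone H3K4 methyltransferases. The sources used here give no age or sex, DN thymocytes were not analysed here, and no label says that the libraries came from separate mice. The p-values below therefore reflect only how these 4 libraries varied, and that variation may be technical.

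The BCL2 family sets the threshold for mitochondrial apoptosis. Its guardians (BCL-2, BCL-XL and MCL-1) hold the effectors BAX and BAK in check, and BH3-only proteins bind the guardians, or activate the effectors directly, so that the outer mitochondrial membrane is permeabilised and cytochrome c is released. In the mouse thymus BCL-2 is known to be high in DN and single-positive cells and low in DP cells, while BCL-XL, the long product of Bcl2l1, is the guardian that DP cells depend on. BIM, the product of Bcl2l11, is the BH3-only protein best known for deleting thymocytes in negative selection.

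The promoters of the 3 guardian genes, picked with the values below known, are shown because Cxxc1 encodes a CpG-binding protein. The part of CG content in those values was not tested. Each run is the 250 bases before an annotated start (RefSeq, GRCm38.p6), 5' to 3' on the gene's strand, with CG dinucleotides in capitals.
Bcl2, chr1:106714291-106714540, minus strand: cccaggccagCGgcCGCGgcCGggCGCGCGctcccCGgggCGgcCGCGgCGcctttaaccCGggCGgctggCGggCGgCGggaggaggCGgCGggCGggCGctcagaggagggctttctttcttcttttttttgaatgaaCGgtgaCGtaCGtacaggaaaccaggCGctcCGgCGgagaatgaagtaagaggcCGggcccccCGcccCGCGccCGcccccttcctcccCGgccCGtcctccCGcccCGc
Bcl2l1, the most CG-rich of 3 listed starts, chr2:152831729-152831978, minus strand: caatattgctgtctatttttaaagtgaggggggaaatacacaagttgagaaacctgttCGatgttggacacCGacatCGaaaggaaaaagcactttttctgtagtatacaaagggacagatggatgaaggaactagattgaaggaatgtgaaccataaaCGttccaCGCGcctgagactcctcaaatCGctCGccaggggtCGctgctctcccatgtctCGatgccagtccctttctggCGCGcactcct
Mcl1, chr3:95658471-95658720, plus strand: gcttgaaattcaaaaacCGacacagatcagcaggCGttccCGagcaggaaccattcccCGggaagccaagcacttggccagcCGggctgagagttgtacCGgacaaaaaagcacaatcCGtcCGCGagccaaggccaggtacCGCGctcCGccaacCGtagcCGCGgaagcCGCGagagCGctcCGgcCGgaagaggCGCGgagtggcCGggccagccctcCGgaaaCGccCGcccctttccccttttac
The Bcl2 window holds 36 CG dinucleotides, the Bcl2l1 window 12 and the Mcl1 window 26, and the other listed Bcl2l1 starts have 11 and 0. By the gene spans given below, the Bcl2 window lies just outside its gene. The Mcl1 window and all 3 Bcl2l1 windows lie inside theirs. The bases before the outermost ends of Mcl1 and Bcl2l1 are therefore not shown, and the 3 windows are not like for like. The median over all 32851 windows of the table was 6, and 92.1% of windows held at least 1. CG reads the same on both strands, so each site was counted once. Windows were read for 9 of the 10 genes. Pmaip1 was left out, so its CG content is not given here. At its most CG-rich start each of the 9 was above that median, from 8 in Bak1 and Bmf to 37 in Bbc3. Which start DP cells use cannot be read from counts per gene. The bases just after the start were not found in the gene's GENCODE M21 transcripts for the Bcl2, Mcl1 and Bbc3 windows. They were found for the Bcl2l1 window shown, so the Bcl2 and Mcl1 starts were not matched to a transcript.

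Counts per library totalled 36243182 and 33544428 in KO, against 12150508 and 34820446 in control. Libraries of a genotype differed well beyond counting error and were not treated as duplicates. Cxxc1 itself had 35.7 and 39.4 CPM in KO and 110.7 and 53.5 CPM in control, where CPM is the count scaled to library size with TMM factors. Its log2 fold change of -1.12 ± 0.34 (SE) did not pass the threshold (edgeR's quasi-likelihood test, adjusted p = 0.199) but passed by DESeq2 (adjusted p = 0.0345). Counts per gene do not separate deleted from kept exons, and the reason for the remaining KO counts was not tested. Of the 20389 genes, 92 (0.451%) passed at an adjusted p below 0.05. All 10 BCL2 family genes were well counted, with 179 to 12506 counts per library and a counting error of 0.894% to 7.47%, which covers counting only.

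None of the 10 genes passed that threshold in edgeR's quasi-likelihood test, where 0.181% of all tested genes passed as lower in KO and 0.27% as higher. The guardian genes Bcl2 and Bcl2l1 had levels 2.28-fold and 2.51-fold lower in KO than in control, without overlap of the libraries. The guardian gene Mcl1 and the BH3-only gene Bmf did not overlap either, at smaller log2 fold changes of -0.22 and -0.43. Levels of the effectors and of the BH3-only genes Bcl2l11, Bbc3, Pmaip1 and Bid overlapped between genotypes. Bcl2l1 had the smallest p of the family and just missed, at an adjusted p of 0.0533, and Bcl2 followed at 0.227. By DESeq2, which called 5.19% of the genes it adjusted, 1 of the 10 was called, Bcl2l1, as lower in KO, where 2.85% of genes were called lower and 2.34% higher. At an unadjusted p below 0.05, 2 of the 10 were lower and 0 higher, against 6.91% lower and 6.97% higher among all tested genes. In 4 of the 10 genes the 2 KO libraries were the lowest 2 of the 4, and in 0 the highest 2; of all tested genes 24% had the first order and 22.8% the second, 46.8% together. The median log2 fold change of the 10 was -0.31, against -0.04 for all tested genes, and 8 of the 10 point estimates were negative.

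**Figure D1:**
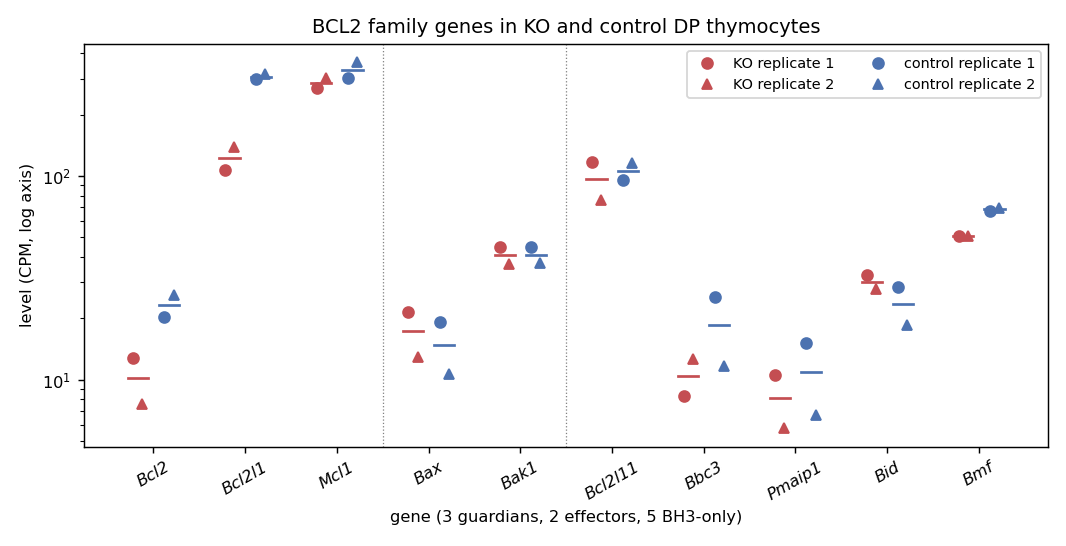
Level (CPM, log axis) of each of the 10 genes in KO (red, left) and control (blue, right) libraries; circles are replicate 1, triangles replicate 2 and short bars the mean of 2. The KO points of Bcl2 and Bcl2l1 lie clear below the control points, those of Mcl1 and Bmf lie just below, and those of the other 6 genes overlap.

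Bcl2l1 (chromosome 2, 152758732 to 152833803 on GRCm38.p6), which encodes BCL-XL, had 106.5 and 138 CPM in KO, against 297 and 316 CPM in control. The gap between the genotypes was wider than the gap between the libraries of either genotype. The means were 122 ± 22.5 CPM in KO and 307 ± 13.2 CPM in control (SD, n = 2 each), a log2 fold change of -1.33 ± 0.23, or 2.51-fold lower in KO, with a 95% interval of -1.85 to -0.80. The adjusted p of 0.0533 in edgeR's quasi-likelihood test ranked Bcl2l1 at position 107 of 20389 genes. The DESeq2 estimate was -1.34 (adjusted p = 1.86e-05). Without control replicate 1 or 2 the edgeR adjusted p was 0.0258 or 0.0376, and without KO replicate 1 or 2 it was 0.312 or 0.0578, at log2 fold changes of -1.37, -1.28, -1.11 and -1.52. Of these 4 fits Bcl2l1 passed in those without a control library. These fits kept the 20389 genes of the full comparison, and the gene sets for such fits were not all settled before the data were seen. With the filter on low counts applied again to the 3 libraries left, Bcl2l1 also passed without KO replicate 2 (edgeR, adjusted p = 0.0106). Long BCL-XL and the short BCL-XS, a splice product that promotes apoptosis, cannot be told apart in these counts.

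Bcl2 (chromosome 1, 106538176 to 106714290) had 12.8 and 7.59 CPM in KO, against 20.3 and 26.0 CPM in control. Both KO libraries were lower, but the KO pair was itself spread by 0.75 on the log2 scale. Means were 10.2 ± 3.67 CPM in KO and 23.2 ± 3.97 CPM in control (SD, n = 2 each), a log2 fold change of -1.19 ± 0.39 with a 95% interval of -2.06 to -0.32 (edgeR, adjusted p = 0.227; DESeq2, adjusted p = 0.0855). Without KO replicate 1 it was -1.57 and without KO replicate 2 it was -0.86. The p for Bcl2 stood at position 1160 of 20389, so many genes outside the family differed at least as clearly.

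Mcl1 (chromosome 3, 95656944 to 95663179) encodes MCL-1, a short-lived guardian whose protein is controlled by ubiquitin ligases. It had 270.7 and 302 CPM in KO, against 304 and 361 CPM in control. The KO libraries were lower, yet the highest KO and lowest control values were almost equal. The log2 fold change was -0.22 ± 0.22, with a 95% interval of -0.72 to 0.29 (edgeR, adjusted p = 0.749), which covers a fold change of 0.608 to 1.22. Changes of the size seen in Bcl2l1 lie outside that interval.

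The effectors had levels that overlapped between the genotypes, and 0 of 2 passed. Bax (chromosome 7, 45461695 to 45466903), a cytosolic protein that moves to mitochondria on activation, had 21.6 and 13.0 CPM in KO and 19.1 and 10.6 CPM in control. Bak1 (chromosome 17, 27019812 to 27028627), which resides on the outer mitochondrial membrane, had 44.5 and 36.8 CPM in KO and 44.6 and 37.3 CPM in control. In both genes the libraries of the genotypes overlapped, and replicate 1 was above replicate 2 in each genotype. The log2 fold changes were 0.22 ± 0.42 for Bax (95% interval -0.73 to 1.18, edgeR, adjusted p = 0.889) and -0.01 ± 0.27 for Bak1 (-0.62 to 0.60, adjusted p = 0.994). The sign of the Bak1 value turned with library totals only as the scaling, at 0.02, and that of Bax turned without KO replicate 1, at -0.15, and without control replicate 2, at -0.14, so neither gene has a direction here.

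Of the 5 BH3-only genes, 0 passed the test in either direction, and their log2 fold changes ran from -0.82 to 0.36. Bcl2l11 (chromosome 2, 128126038 to 128162547) had 116.6 and 76.3 CPM in KO, against 94.9 and 115.7 CPM in control. Its highest and lowest values were both in KO libraries, and the log2 fold change was -0.13 ± 0.27 (95% interval -0.73 to 0.47, edgeR, adjusted p = 0.901). Bmf (chromosome 2, 118528757 to 118549686), whose protein is tethered to the cytoskeleton until released, had 50.8 and 50.6 CPM in KO and 67.1 and 69.8 CPM in control. Its replicates were the closest of the family in both genotypes and the groups did not overlap, but the difference was small, at -0.43 ± 0.23 (95% interval -0.95 to 0.09, adjusted p = 0.455).

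Bbc3 and Pmaip1, which encode the p53-induced proteins PUMA and NOXA, varied most between libraries of the control genotype. Bbc3 (chromosome 7, 16308398 to 16318334) had 8.32 and 12.6 CPM in KO, against 25.4 and 11.7 CPM in control. Control replicate 1 stood apart, and the log2 fold change of -0.82 ± 0.46 (edgeR, adjusted p = 0.477) was -0.16 without it and -1.28 without control replicate 2. Pmaip1 (chromosome 18, 66458604 to 66465558) had 10.6 and 5.76 CPM in KO, against 15 and 6.72 CPM in control. Its log2 fold change was -0.41 ± 0.53 (adjusted p = 0.814), and 0.28 without control replicate 1, so that library decided the sign. Bid (chromosome 6, 120893119 to 120917062), whose product is cut by caspase-8 and links death receptors to mitochondria, had 32.5 and 27.9 CPM in KO and 28.6 and 18.6 CPM in control. Its log2 fold change was 0.36 ± 0.33 (adjusted p = 0.699), and it ran from 0.08 without control replicate 2 to 0.70 without control replicate 1.

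**Figure D2:**
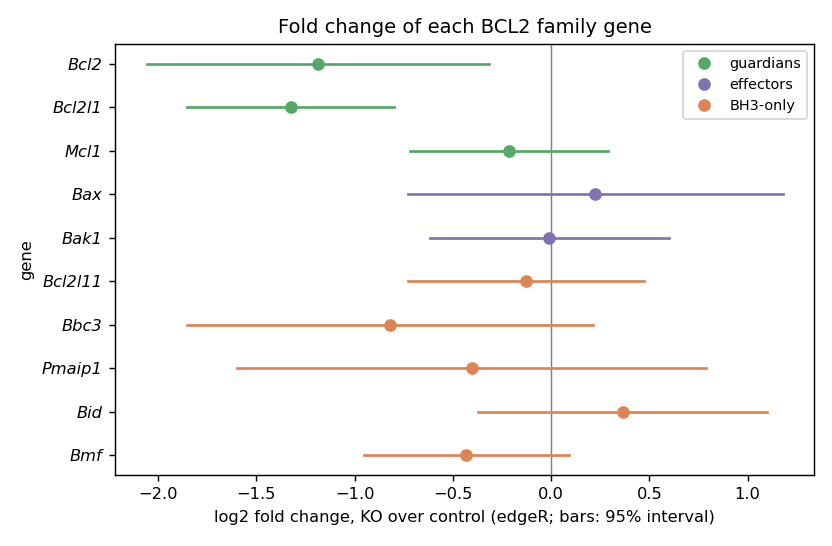
Log2 fold change, KO over control, of each gene (points) with its 95% interval from edgeR (bars), coloured by role. The intervals of Bcl2 and Bcl2l1 lie below 0 and those of the other 8 genes include 0; the intervals are not adjusted for the number of genes tested.

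Ratios between family genes within a library need no scaling of libraries, and 7 were compared. Bcl2l1 counts relative to Mcl1 counts were 0.394 and 0.458 in KO, against 0.98 and 0.876 in control. The KO mean log2 ratio was -1.24 ± 0.16 and the control mean -0.11 ± 0.11 (SD, n = 2 each), a difference of -1.13. That difference is several times the spread within either genotype. Bcl2 relative to Bcl2l11 was 0.11 and 0.0995 in KO and 0.214 and 0.224 in control, a log2 difference of -1.07 with SDs of 0.10 in KO and 0.05 in control. Bcl2l1 relative to Bcl2l11 was 0.914 and 1.81 in KO and 3.13 and 2.73 in control, a log2 difference of -1.18, which was -0.69 without KO replicate 1. Bcl2 relative to Mcl1 was also lower in both KO libraries, with a log2 difference of -1.01 that was -0.56 without KO replicate 2.

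The remaining 3 ratios overlapped between genotypes. Mcl1 relative to Bcl2l11 was 2.32 and 3.96 in KO and 3.20 and 3.12 in control, and Bax relative to Bak1 was 0.485 and 0.352 in KO and 0.427 and 0.286 in control. Bcl2 relative to Bcl2l1 was 0.12 and 0.0549 in KO and 0.0684 and 0.0821 in control, so the KO values lay on either side of the control values. With 2 libraries against 2, a two-sided exact permutation test cannot go below p = 0.333, which is what each of the 4 ratios without overlap gave, at 0.583 after Benjamini-Hochberg adjustment over the 7.

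**Figure D3:**
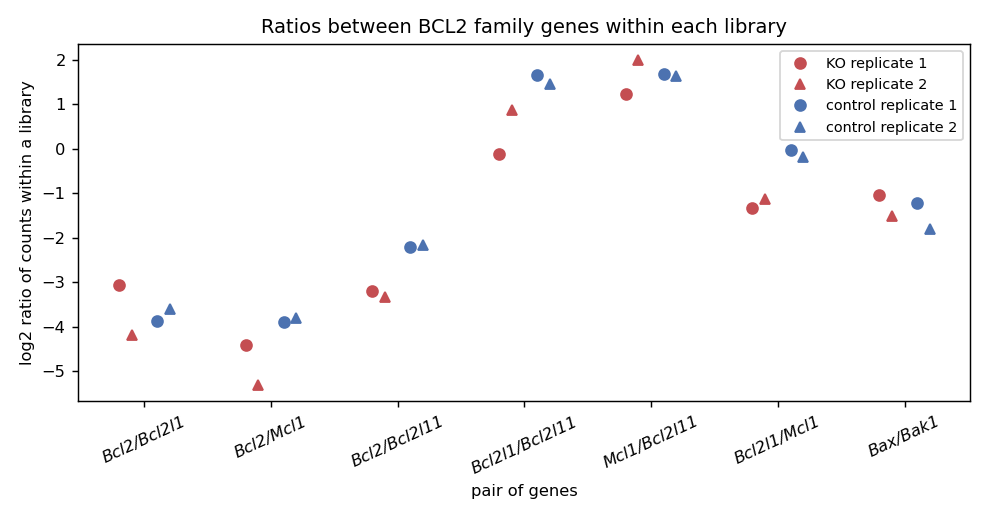
Log2 ratio of the counts of 2 genes within each library, for 7 pairs, in KO (red, left) and control (blue, right); circles are replicate 1 and triangles replicate 2. For Bcl2/Mcl1, Bcl2/Bcl2l11, Bcl2l1/Bcl2l11 and Bcl2l1/Mcl1 both KO points lie below both control points, and for the other 3 pairs they overlap.

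Levels of different genes were compared per kilobase of exon (exon union in GENCODE M21, 1.58 kb for Bax to 9.16 kb for Bcl2). On that scale Mcl1 was the highest of the 10 in every library, at 79.2 and 88.3 CPM per kb in KO and 88.8 and 106 CPM per kb in control. Bcl2l1 was second in every library, at 23.2 and 30.2 CPM per kb in KO and 64.9 and 68.9 CPM per kb in control, and Bak1 came next in every library, at 15.3 to 18.5 over the 4 libraries. Bcl2l11, Bmf, Bax, Bid and Bbc3 changed places between libraries and cannot be ordered beyond their spread. Pmaip1 and Bcl2 were the lowest 2, at 2.11 to 5.51 and 0.828 to 2.84 CPM per kb. Of the guardians' summed level per kilobase, Bcl2l1 made up 22.4% and 25.3% in KO, against 41.6% and 38.9% in control, and Mcl1 76.3% and 74% in KO, against 57.0% and 59.5% in control. Exon length depends on the isoforms present, so these orders are approximate.

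Among 8551 other genes with a mean of at least 10 CPM, Cd44, Cd6 and Irs2 had the patterns over the 4 libraries closest to that of Bcl2l1, with root mean square distances of 0.05, 0.05 and 0.07 on the log2 scale. The closest to Bcl2 were Pik3r3, Slc16a5 and Syt14 (0.10, 0.12 and 0.12), and the closest to Bcl2l11 were Imp4, Dap and Apopt1 (0.02, 0.03 and 0.03). With 4 libraries many patterns are alike, and this is a description only.

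The wider apoptosis pathway was read from 7 further lists, in which 3 genes passed the test, Myc and Il7r higher and Nr4a1 lower. For these and the marker lists below, edgeR called 0.27% of all tested genes higher and 0.181% lower. At an unadjusted p below 0.05 the shares were 6.97% higher and 6.91% lower. By DESeq2 they were 2.34% higher and 2.85% lower among the genes it adjusted. Of 16 other BCL2-related genes, 10 were tested and 0 passed, with 3 higher and 0 lower at an unadjusted p below 0.05 and a median log2 fold change of 0.30. Bcl2l2, which encodes the guardian BCL-W, had 20.6 and 22.9 CPM in KO and 13.6 and 9.66 CPM in control (0.91 ± 0.35, edgeR, adjusted p = 0.305). Bcl2l14, a little-studied relative, had 7.66 and 3.91 CPM in KO and 0.504 and 0.577 CPM in control (3.40 ± 0.81, adjusted p = 0.115), and was the 1 member that DESeq2 called (adjusted p = 0.00601). The mitophagy receptor gene Bnip3 had 2.03 ± 0.79 (adjusted p = 0.301). Of the Bcl2a1 guardian genes, near-identical copies between which reads may be split, Bcl2a1a and Bcl2a1c had 0 counts and Bcl2a1b and Bcl2a1d too few to test.

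Downstream of the mitochondrion, 0 of 15 apoptosome and caspase genes passed edgeR's test or DESeq2's, with a median of 0.09, and 1 was higher at an unadjusted p below 0.05. The cytochrome c gene Cycs had 37.6 and 30 CPM in KO and 16.3 and 18.3 CPM in control, a log2 fold change of 0.96 ± 0.31 (edgeR, adjusted p = 0.219). Apaf1, the scaffold that cytochrome c assembles into the apoptosome, had 67.6 and 52.6 CPM in KO and 83.6 and 81.0 CPM in control (-0.45 ± 0.24, adjusted p = 0.445). The member at an unadjusted p below 0.05 was Cycs. Of 8 tested death receptor genes 0 passed by either tool, with a median of 0.09 and 2 higher and 2 lower at an unadjusted p below 0.05. Tnfrsf1a, a receptor for tumour necrosis factor, had 29.1 and 34.5 CPM in KO and 61.8 and 50.7 CPM in control (-0.82 ± 0.27, adjusted p = 0.226). Fas, the receptor for Fas ligand, had 31.8 and 68.2 CPM in KO and 81.1 and 122 CPM in control (-1.03 ± 0.37, adjusted p = 0.264). The necroptosis and NF-kB kinase gene Ripk1 stood the other way, at 64.2 and 62.2 CPM in KO and 35.2 and 37.4 CPM in control (0.80 ± 0.24, adjusted p = 0.206).

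Of 14 transcription factor genes known to act on family members, 1 rose and 1 fell by edgeR, with a median of -0.18, while DESeq2 called 1 higher and 3 lower. Nr4a1, a TCR-induced nuclear receptor gene, fell to 4.71 and 5.03 CPM in KO, against 30.5 and 37.0 CPM in control (-2.79 ± 0.35, adjusted p = 0.0177). Myc, which promotes growth and sensitises cells to apoptosis, rose to 200.6 and 109 CPM in KO, against 21.9 and 13.0 CPM in control (3.16 ± 0.38, adjusted p = 0.0156). Both calls were lost without KO replicate 1 with the tested genes held fixed, while 2 of the 14 were called with the filter applied again. Foxo1, of a factor family that can induce Bcl2l11, had 54.4 and 46.3 CPM in KO and 101.6 and 89.1 CPM in control (-0.92 ± 0.23, edgeR, adjusted p = 0.133; DESeq2, 0.0211). Trp53, which encodes p53, had 136 and 78.8 CPM in KO and 67.5 and 93.2 CPM in control (0.42 ± 0.30, adjusted p = 0.614). Foxo1 was lower in both KO libraries, an order that 24% of all tested genes had, while Trp53 and Bcl2l11 overlapped. The part of these factors in the family's values was not tested.

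Of 9 genes of the cytokine survival input, 1 rose and 0 fell by edgeR, with a median of -0.13, while DESeq2 called 4, 3 higher and 1 lower. Il7r, which encodes an interleukin receptor that induces BCL-2 through STAT5 in DN and mature T cells, rose to 30.6 and 21.9 CPM in KO, against 1.01 and 0.26 CPM in control (5.58 ± 0.65, adjusted p = 0.0152), a call lost without KO replicate 1 with the tested genes held fixed, while 1 of the 9 was called with the filter applied again. Bcl2 itself was lower in the same KO libraries, as given above. The kinase gene Jak3 had 1.28 ± 0.30 (edgeR, adjusted p = 0.109; DESeq2, 0.0114). The feedback inhibitor genes had 1.24 ± 0.36 for Socs3 (edgeR, adjusted p = 0.188; DESeq2, 0.0433) and -1.03 ± 0.27 for Socs1 (edgeR, adjusted p = 0.14; DESeq2, 0.0196). Of 8 genes that act on the family's proteins 0 passed by either tool (median 0.20, 1 higher at an unadjusted p below 0.05), with Huwe1, a ubiquitin ligase gene for MCL-1, at 0.39 ± 0.23 and Btrc, another ligase gene, at 1.00 ± 0.29 (adjusted p = 0.506 and 0.188). Of 11 tested p53 targets outside the family 0 passed by either tool, with a median of -0.28 and 1 lower at an unadjusted p below 0.05, which was Fas. Tnfrsf10b, a death receptor gene, had 0.86 ± 0.53 and Mdm2, the p53 ubiquitin ligase gene, had -0.28 ± 0.22 (edgeR, adjusted p = 0.538 and 0.64).

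**Figure D4:**
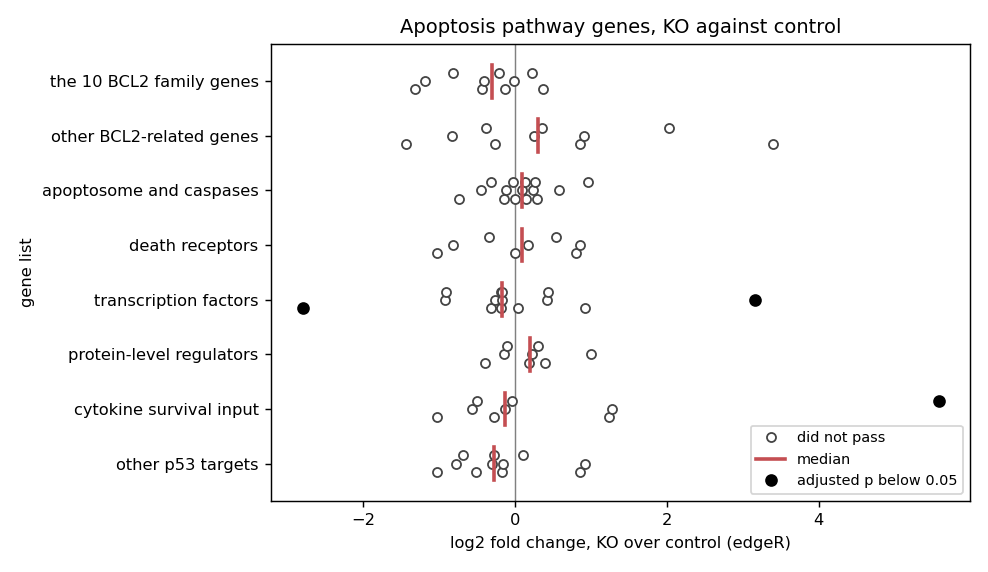
Log2 fold change, KO over control, of each tested gene (circles) in the 10 BCL2 family genes and 7 pathway lists, with list medians (red bars); filled circles passed at an adjusted p below 0.05. Filled circles are Nr4a1 and Myc among the transcription factors and Il7r in the cytokine list, and the list medians lie between -0.31 and 0.30.

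Markers of thymocyte stage moved with genotype. Cd4 was at 142 and 277 CPM in KO and 893 and 896 CPM in control, and Cd8a at 258 and 478 CPM in KO and 1258 and 1811 CPM in control, so both DP markers were present in all libraries. Over 10 genes listed as DP markers the summed level was 6134 and 9030 CPM in KO, against 12895 and 16896 CPM in control. Rag1 alone gave 2997 and 4488 CPM in KO and 4967 and 7055 CPM in control (edgeR, adjusted p = 0.357). Cd4, Cd8a and Dntt fell with 7 genes not passing (DESeq2 called 6 lower). Cd24a and Rag2 changed least, at log2 fold changes of -0.16 and -0.13. Over 8 DN markers the sum was 920 and 520.5 CPM in KO, against 181 and 143 CPM in control, and Il2ra, Il7r, Notch3 and Dtx1 rose with 4 not passing. Among those 4 the adhesion receptor gene Cd44 stood the other way, at 11.7 and 15 CPM in KO and 30.3 and 35.2 CPM in control (-1.30 ± 0.32, edgeR, adjusted p = 0.124; DESeq2, 0.0139), and DESeq2 called 6 of the 8 higher and 1 lower. Bcl2l1, which is high in DP cells, was lower alongside the DP genes. Bcl2, known to be high in DN and low in DP cells, was lower too, while the DN sum was higher. Whether there were fewer cells of a stage or less RNA per cell cannot be told apart in bulk samples. The part of stage markers in the Bcl2l1 and Bcl2 values was not tested.

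Other cell types left low levels. Summed over their lists, B cell markers had 7.92 to 10.8 CPM in KO and 8.02 to 9.67 CPM in control (6 genes), and dendritic markers 1.57 to 2.84 CPM in KO and 4.13 to 7.15 CPM in control (6 genes). Myeloid markers had 33.1 to 55.5 CPM in KO and 21.0 to 34.0 CPM in control (8 genes), of which the integrin gene Itgam gave most. Mature single-positive markers had 123.5 to 133 CPM in KO and 145 to 192 CPM in control (8 genes). That sum includes Il7r, also on the DN list, which was the 1 gene of this list that edgeR called. It was higher in KO, at 30.6 and 21.9 CPM against 1.01 and 0.26 CPM in control. NK and innate markers had 36.8 to 52.4 CPM in KO and 14.9 to 26.0 CPM in control (8 genes), with Klrd1 at 0 in all libraries. Gzma rose and gave most of the KO sum of the NK and innate list. Erythroid genes had 11.0 to 27.3 CPM in KO and 1.18 to 1.30 CPM in control (6 genes), and Hba-a1 rose. Epithelial and stromal genes had 116 to 152 CPM in KO and 133 to 164 CPM in control (8 genes), mostly Pecam1, so the sum says little about the others. Epcam was higher in KO, at 11.6 and 15.1 CPM against 1.09 and 4.88 CPM in control (adjusted p = 0.21 by edgeR and 0.0397 by DESeq2). The other 6 tested genes had negative log2 fold changes, among them Psmb11, at 0.06 and 0 CPM in KO and 1.18 and 1.38 CPM in control. Stress genes had 7.02 to 11.1 CPM in KO and 14.8 to 19.6 CPM in control (6 genes), and mitochondrial genes took 1.53% to 2.36% of counts in KO and 1.19% to 1.61% in control. The part of these in the family's values was not tested.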

How the data were processed

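Per the labels' protocols, total RNA of FACS-sorted DP thymocytes (integrity number above 8) was taken at 10 ng into a SMART-seq Standard kit, which amplifies cDNA by PCR. The deposited files hold the authors' raw read counts per gene symbol, 1 file per library and not normalised. Tools named in the submitters' processing notes, without role or order, are featureCounts 2.0.8, HISAT2 2.2.1, edgeR 3.36.0 and cutadapt 4.0, with the genome mm10. The annotation, strandedness and handling of multi-mapped reads were not given in the sources used here, and without strand overlapping genes share reads. Groups came from the sample titles.

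Counts were analysed here with R 4.3.3 and edgeR 4.0.16: filterByExpr (minimum count 10, total 15), TMM scaling, and a quasi-likelihood test with genotype as the only term, Benjamini-Hochberg adjusted over all 20389 genes at 0.05. The biological coefficient of variation was 57.4%. SE is the log2 fold change over the root of F. DESeq2 1.42.0 was an alternative. The test was run on simulated counts, where it missed most of the smallest planted changes and its share of false calls was above the nominal level, so a gene that missed the threshold is not shown to be unchanged. The 10 genes and the gene lists were chosen with earlier results of these data known. By rule the text names all 10 members, the called genes of each pathway list or else the 2 of smallest p, and the 3 genes nearest in pattern. Bcl2l2, Fas among death receptors, Foxo1, Trp53, Jak3, Socs1, Socs3, Mdm2, Cdkn1a, Sesn2 and single marker genes were picked after their values were seen. Some list genes are not reported here by name. Promoters are RefSeq GRCm38.p6 sequences, the assembly that mm10 names.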

Additional observations from a re-analysis of the deposited data

How the results depend on the processing

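Of 120 values of the 10 genes under 12 alternatives each, 9 newly passed, 10 changed sign and the others kept their direction and side of the threshold. Bcl2l1 was lower in KO under all 12, from -1.52 to -1.11. It passed without a filter on low counts (-1.30), at 5 CPM or more in 2 libraries (-1.40), by DESeq2 (-1.34), with edgeR's newer quasi-likelihood setting (-1.33), by the likelihood ratio test (-1.33), with the replicate number as a block (-1.34) and without either control library (tested genes held fixed); each of these settings called 1 of the 10 genes, except the block, which called 2. With RLE size factors, with library totals only and without either KO library 0 were called. Bcl2 passed with the block alone (-1.23, adjusted p = 0.0132). Same-numbered libraries share a number only (r = 0.34 over 9255 genes between the replicate differences of the genotypes), and the block called 1599 genes, so its calls are given here as an alternative and no more. Leaving out single libraries gave 0 to 1 called members, -1.57 to -0.86 for Bcl2, -1.52 to -1.11 for Bcl2l1, -0.15 to 0.70 for Bax, -0.13 to 0.13 for Bak1, -0.43 to 0.15 for Bcl2l11 and -0.88 to 0.28 for Pmaip1. Bak1 also changed sign with library totals only (0.0178), without a filter (0.0191) and with the newer setting (0.0042). Over all genes the 92 calls became 920 without a filter, 228 at 5 CPM, 1039 by DESeq2, 997 by the likelihood ratio test and 9 to 619 with a library left out, where a lone library is assumed to vary like the rest; the share called higher was 59.8% at first, 48.2% at 5 CPM and 45.1% by DESeq2. The leave-one-out fits above kept the 20389 genes of the full comparison. They were also run with the filter on low counts applied again to the 3 libraries left. The gene sets were not all settled before the data were seen, so both versions are given. Filtered again, 223 and 384 genes were called without KO replicates 1 and 2, and 864 and 805 without control replicates 1 and 2. Bcl2l1 then passed in 3 of the 4 fits, at -1.51 without KO replicate 2 (adjusted p = 0.0106, against 0.0578 with the fixed set), -1.35 without control replicate 1 and -1.27 without control replicate 2, and was at -1.10 without KO replicate 1 (adjusted p = 0.0758), so 0 to 1 members were called. In the filtered-again fits the sign turned for Bax without KO replicate 1 (-0.1402) and control replicate 2 (-0.135), for Bak1 without KO replicate 2 (0.1393) and control replicate 1 (0.1406), for Bcl2l11 without KO replicate 2 (0.1634) and control replicate 2 (0.0319), and for Pmaip1 without control replicate 1 (0.2951). The cause of these shifts was not tested. With a library left out the log2 ratio difference ran from -0.45 to 0.68 for Bcl2/Bcl2l1, -1.47 to -0.56 for Bcl2/Mcl1, -1.14 to -1.001 for Bcl2/Bcl2l11, -1.68 to -0.69 for Bcl2l1/Bcl2l11, -0.44 to 0.33 for Mcl1/Bcl2l11, -1.24 to -1.01 for Bcl2l1/Mcl1 and -0.05 to 0.53 for Bax/Bak1. Where the genotypes did not overlap, leaving out a library cannot turn the sign, so a kept sign there is no sign of stability.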

Other observations

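Same-numbered libraries were compared in the p53 target genes, a pattern noticed in the data and given as values only. Cdkn1a, the cell cycle inhibitor gene, had 13.7 and 3.88 CPM in KO replicates 1 and 2, and 8.41 and 1.07 CPM in control replicates 1 and 2. Sesn2, a stress-induced gene, had 7.61 and 1.99 CPM in KO replicates 1 and 2, and 14.8 and 1.99 CPM in control replicates 1 and 2. Replicate 1 was above replicate 2 in both genotypes for 4 of the 10 BCL2 family genes and for 5 of 11 other p53 targets, against 26.1% of all tested genes and 32.1% of the tested genes averaging 10 CPM or more. Replicate 2 was above replicate 1 in both genotypes for 2 of the 10 family genes and 2 of the 11 targets, against 29.4% of all tested genes. Among the family genes, Bax and Pmaip1 were higher in replicate 1 in both genotypes, while Bbc3 was higher in replicate 1 only in control.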
